A study of Homo sapiens with 8 samples.

Results

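The extracellular matrix genes described here are 40 genes known as targets, or members of the target families, of the microRNA miR-29. They comprise 23 collagen genes and 17 genes for laminin chains, nidogens, elastic fibre proteins, cross-linking enzymes and matrix-modifying enzymes. They were chosen by name, with earlier results of these data known, and all 40 were found among the 18417 genes with a probe set of their own. Each had 1 such probe set, so no choice between probe sets was needed.

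Transcript levels were measured in DU145 and LNCaP cells, which are established human prostate cancer cell lines. DU145 grows without androgen, and LNCaP responds to it. Cells of each line were transfected for 72 hours with miR-29b, with a negative control miRNA (nc), with an siRNA against TET2 (siTET2) or with a control siRNA (siControl). TET2 oxidises 5-methylcytosine, a step in the removal of DNA methylation. There were 8 arrays, 1 for each line and construct, so no group had a replicate. The labels give neither the siRNA sequences nor the arm or form of miR-29b used.

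Collagens are secreted proteins of 3 chains that form fibrils, sheets or filaments outside the cell. Basement membranes are thin sheets of type IV collagen, laminin, nidogen and perlecan beneath epithelia. The miR-29 family is known to pair with sites in the untranslated ends of many of these transcripts and to lower them, above all in fibroblasts. Tumour epithelial cells usually make basement membrane components and little fibrillar collagen.

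The mature sequences of the 3p arm, the arm with the known matrix targets, show what miR-29b shares with the rest of its family. Sequences are those of RefSeq on GRCh38.p14, all on the minus strand, with the seed (bases 2 to 8, which pair with a target) in capitals. miR-29b-3p has the same sequence at 2 loci, chr7:130877467-130877489 and chr1:207802450-207802472. miR-29a-3p lies at chr7:130876748-130876769 and miR-29c-3p at chr1:207801865-207801886.
hsa-miR-29b-3p: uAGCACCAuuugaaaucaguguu
hsa-miR-29a-3p: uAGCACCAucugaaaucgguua
hsa-miR-29c-3p: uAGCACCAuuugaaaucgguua
All 3 carry the same seed, and no other mature miRNA in the RefSeq table does. Counted from the 5′ end, miR-29c-3p differs from miR-29b-3p by A18G, G21U and U22A, and miR-29a-3p by U10C as well. All of these positions lie outside the seed. Transcript sequences were not used here, so no target site is shown for any gene.

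TET2 and the markers of the lines followed the labels. TET2 had a log2 level of 6.6 with siTET2 against 7.85 with siControl in DU145, and of 7.89 against 9.01 in LNCaP. With miR-29b it had 7.79 in DU145 (7.96 with nc) and 8.59 in LNCaP (9.24 with nc), below both control arrays of each line. In the limma fit common to both lines, miR-29b minus nc was -0.41 for TET2 (limma adjusted p = 0.995). Uptake of miR-29b by the cells was not tested. The DU145 arrays each had 10 of 12 DU145 markers above the median over named genes of the array, and the LNCaP arrays each had 3. Of 6 LNCaP markers, 1 passed this median in the DU145 arrays, against 5 or 6 in those of LNCaP. No endothelial marker of 10, 1 immune marker of 11 and 1 or 2 fibroblast markers of 10 lay above it in each array. The median over named genes ranged from 7.36 to 7.42 in DU145 and from 7.63 to 7.70 in LNCaP. Levels are therefore set against the median of their own array where the lines are tested against each other. Levels listed gene by gene are as deposited, so small gaps between the lines in them can come from this shift.

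Most of the matrix genes were measured at low levels in both lines. Of the 40, 27 lay below the array's median in all 8 arrays, where 41.5% of all named genes did. A total of 13 lay above it in at least 1 array, and 2 in all 8 (background 41.5%). Probe sets differ in how well they bind, so a place below the median does not show that a transcript is absent. Of 23 collagen genes, 20 stayed below the median throughout, against 7 of the 17 others. In DU145, 8 genes were above the median in all 4 arrays (48.0% of named genes), and in LNCaP 5 were (47.5%). The position at the median was close for several genes. ELN in the DU145 miR-29b array lay 0.01 above it on the log2 scale and COL5A3 in the LNCaP nc array 0.05 below it.

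**Figure D1:**
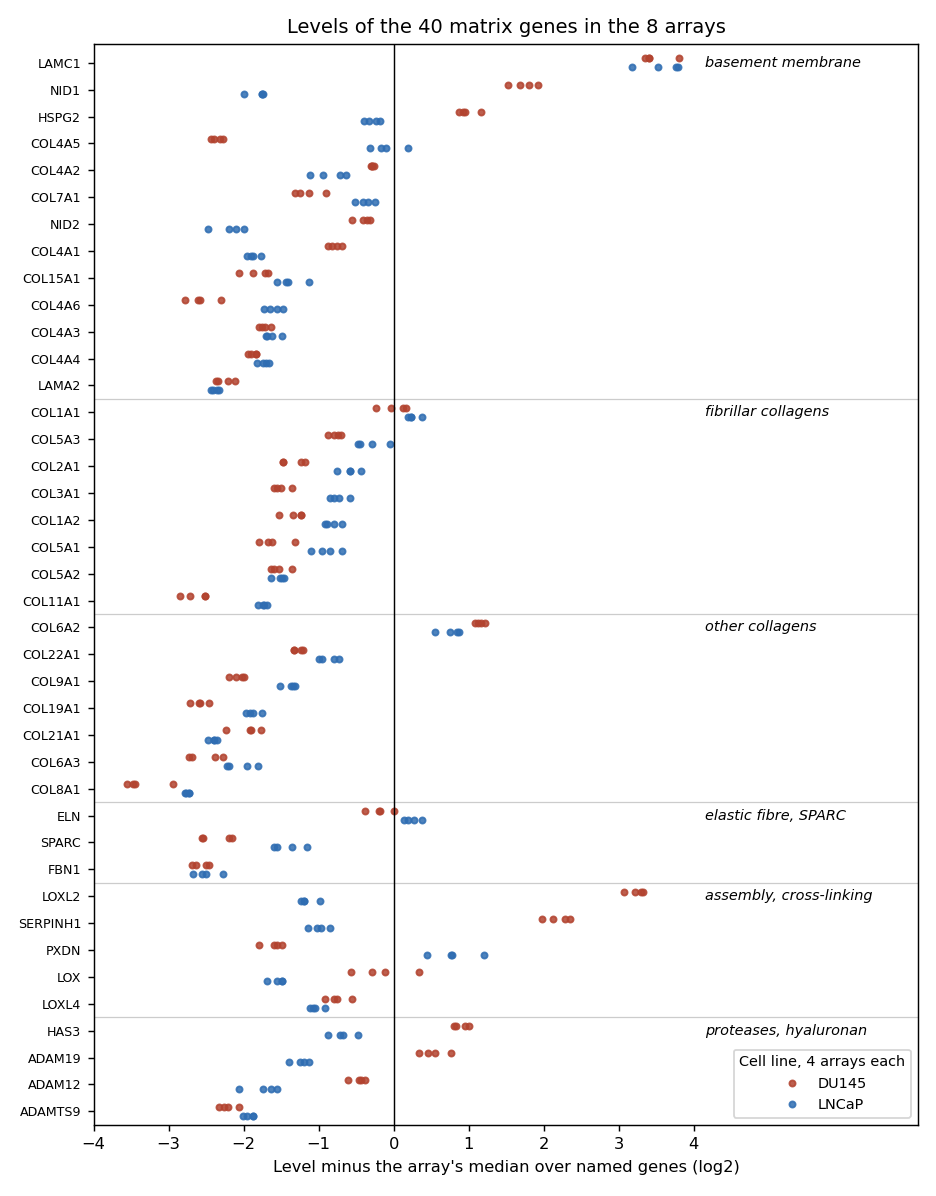
Log2 level of each of the 40 matrix genes minus the median over named genes of the same array, with 4 arrays per line, DU145 above LNCaP in each row, grouped by role. Most genes sit left of the line at 0; LAMC1 and COL6A2 sit right of it in all 8 arrays, and LOXL2, NID1 and SERPINH1 only in DU145.

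Among the basement membrane genes, LAMC1, the gamma-1 chain shared by most laminins, was far above the median in both lines. DU145 cells had a log2 level of 10.75 for miR-29b, 10.82 for nc, 11.18 for siTET2 and 10.80 for siControl. LNCaP cells had 10.88, 11.23, 11.46 and 11.40 in the same order of constructs, which is used below as well. In each line the miR-29b array was the lowest of the 4 and the siTET2 array the highest. NID1, nidogen-1, which links laminin to type IV collagen, had 8.93, 9.34, 9.16 and 9.08 in DU145 (miR-29b, nc, siTET2, siControl). In LNCaP it had 5.94, 5.70, 5.93 and 5.88, with no overlap between the lines. HSPG2, perlecan, the heparan sulfate proteoglycan of basement membranes, had 8.31, 8.58, 8.32 and 8.25 in DU145 and 7.31, 7.52, 7.43 and 7.29 in LNCaP. Both genes lay above the median in DU145 only.

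The chains of type IV collagen come from 3 pairs of neighbouring genes on opposite strands, COL4A1 with COL4A2, COL4A3 with COL4A4 and COL4A5 with COL4A6. COL4A1 lay between 6.52 and 6.67 in DU145 and between 5.67 and 5.94 in LNCaP. COL4A2 was close to 7.1 in every DU145 array, from 7.08 to 7.12, and from 6.51 to 7.06 in LNCaP. COL4A5 alone of the 6 passed the median, in the LNCaP siTET2 array at 7.87, with 7.37 for miR-29b, 7.53 for nc and 7.52 for siControl. In DU145 it lay between 4.96 and 5.12. Its neighbour COL4A6 had 4.63 to 5.10 in DU145 and 5.95 to 6.22 in LNCaP. COL4A3 and COL4A4, whose chains are known from kidney and lung, stayed between 5.45 and 6.21 in all arrays. NID2, the second nidogen, had 6.83 to 7.10 in DU145 and 5.16 to 5.71 in LNCaP. LAMA2, the laminin chain of muscle, was at 5.02 to 5.32 everywhere. COL7A1, which forms the anchoring fibrils of skin, and COL15A1 of the basement membrane zone stayed below the median in all 8 arrays.

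Of 8 fibrillar collagen genes, COL1A1 was the only gene above the median in any array. COL1A1, the major chain of type I collagen, had 7.53, 7.19, 7.53 and 7.34 in DU145 (miR-29b, nc, siTET2, siControl) and 7.93, 8.09, 7.91 and 7.82 in LNCaP. It passed the median in 2 of the 4 DU145 arrays and in all 4 of LNCaP, never by more than 0.38. COL1A2, the other chain of type I collagen, lay at 5.89 to 6.15 in DU145 and 6.70 to 7.02 in LNCaP, below the median everywhere. COL3A1, COL2A1, COL5A1, COL5A2, COL5A3 and COL11A1 did so as well. Among the other collagens, COL6A2, a chain of the beaded filaments of type VI collagen, had 8.51, 8.51, 8.58 and 8.55 in DU145 and 8.44, 8.58, 8.52 and 8.17 in LNCaP. Its partner chain COL6A3 had only 4.65 to 5.13 in DU145 and 5.40 to 5.89 in LNCaP. COL8A1, COL9A1, COL19A1, COL21A1 and COL22A1 were below the median in every array.

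ELN, the precursor of elastin, had 7.41, 7.04, 7.17 and 7.21 in DU145 and 7.96, 8.08, 7.82 and 7.82 in LNCaP. FBN1, the main protein of elastic microfibrils, was at 4.70 to 4.92 in DU145 and 5.01 to 5.43 in LNCaP. Set against the median of each array, FBN1 overlapped between the lines, with DU145 minus LNCaP at -0.07. SPARC, a collagen-binding glycoprotein that stromal cells make in bulk, was at 4.86 to 5.22 in DU145 and 6.09 to 6.55 in LNCaP. ELN passed the median in all 4 LNCaP arrays and, in DU145, with miR-29b only. FBN1 and SPARC stayed below it in all 8 arrays. Of the fibroblast markers, 1 or 2 of 10 passed the median, and a link between the 2 was not tested.

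Of the genes that fold and cross-link collagen, 4 of 5 were above the median in at least 1 array, but not in the same arrays. SERPINH1 and LOXL2 were above it in DU145 only, PXDN in LNCaP only and LOX in 1 DU145 array. SERPINH1, the chaperone HSP47 that binds collagen in the endoplasmic reticulum, had 9.51, 9.77, 9.66 and 9.36 in DU145 and 6.84, 6.73, 6.66 and 6.48 in LNCaP. LOXL2, a lysyl oxidase that cross-links type IV collagen, had 10.46, 10.72, 10.70 and 10.60 in DU145 and 6.50, 6.72, 6.43 and 6.43 in LNCaP. Both were well apart between the lines. PXDN, peroxidasin, which forms another type of cross-link in type IV collagen, went the other way, with 5.80, 5.92, 5.58 and 5.83 in DU145 and 8.14, 8.48, 8.87 and 8.40 in LNCaP. LOX, the founding lysyl oxidase, had 6.83, 7.13, 7.70 and 7.27 in DU145, where it passed the median with siTET2 only. In LNCaP it had 6.14, 6.02, 6.19 and 6.14. Of the remaining enzymes, ADAM19, a metalloprotease, had 7.85, 7.76, 8.14 and 7.94 in DU145 and 6.44, 6.51, 6.54 and 6.23 in LNCaP. HAS3, a hyaluronan synthase, had 8.20, 8.37, 8.37 and 8.21 in DU145 and 6.97, 7.22, 7.01 and 6.74 in LNCaP. LOXL4, a further lysyl oxidase, and the metalloproteases ADAM12 and ADAMTS9 stayed below the median in all 8 arrays, with ADAM12 at 6.79 to 7.0 in DU145 and 5.57 to 6.15 in LNCaP.

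**Figure D2:**
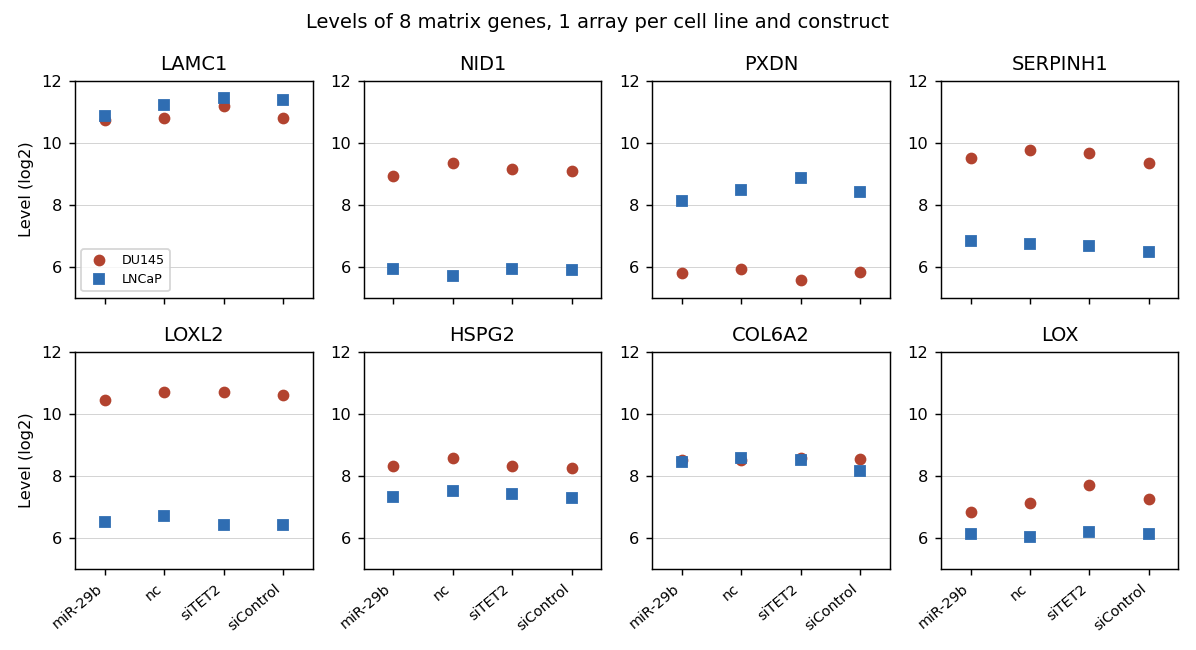
Log2 level of 8 matrix genes by construct, 1 point per array, DU145 as circles and LNCaP as squares. NID1, SERPINH1 and LOXL2 are higher in all 4 DU145 arrays, PXDN in all 4 LNCaP arrays, and LAMC1 has its lowest value with miR-29b and its highest with siTET2 in each line.

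For LOXL2, SERPINH1, NID1 and PXDN the lines differed by more than any construct did within a line. The difference was tested with limma on the level minus the array's median, with construct as a term, over the 9209 genes in the upper part of the mean levels (mean no lower than the median gene). The arrays of a line served as its replicates, although each received a different construct. Whether they came from separate cultures is not given, so the spread behind the limma p-values may be technical. Only 8 of the 40 genes entered this fit. Of these, 5 were higher and 2 lower in DU145 than in LNCaP, where 41.9% of all genes tested were higher and 36.9% lower. Differences between the lines were thus common among all genes. The count of 5 against 2 is partly fixed by the filter: LOXL2, SERPINH1, HAS3 and HSPG2 reached it through DU145 only, and COL1A1 and ELN through LNCaP only. With no filter, more of the 40 genes were lower than higher in DU145. LOXL2 was 4.38 log2 units higher (SE 0.0736, limma adjusted p = 4.51e-11) and SERPINH1 3.18 higher (SE 0.0777, limma adjusted p = 5.46e-10). HAS3 was 1.59 and HSPG2 1.26 higher. COL6A2 was 0.39 higher (limma adjusted p = 0.00111), but 0.11 with the values as deposited, where the limma adjusted p was 0.241. ELN was lower by 0.43 in DU145. COL1A1 was lower by 0.25 (limma adjusted p = 0.0331). That call was lost with the 8 arrays quantile normalized together, and without the nc or the siControl array of either line, with differences of -0.13 to -0.26 and limma adjusted p-values of 0.08 to 0.166. LAMC1 differed by -0.07, with a 95% interval from -0.27 to 0.13. With the values as deposited, LAMC1 was at -0.35 with a limma adjusted p of 0.00324. The centring itself moved the median difference of the tested genes to 0.04, against -0.25 as deposited, where 2546 genes were called higher and 4986 lower in place of 3855 and 3399.

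NID1, ADAM19, PXDN, COL4A5 and the other matrix genes with a mean level under the filter were read from the same fit with no filter, over 18417 genes. There NID1 was 3.55 higher in DU145 (limma adjusted p = 8.59e-09), ADAM19 1.77 higher and NID2 1.77 higher. PXDN differed by -2.40 (limma adjusted p = 5.86e-07) and COL4A5 by -2.25 (limma adjusted p = 9.09e-08). COL4A1 was 1.09 and COL4A2 0.57 higher in DU145, whereas COL4A6 was at -0.96. In all, 14 of the 40 were higher and 20 lower in DU145, against 28.1% and 50.5% of all genes. The 4 arrays of DU145 lay wholly above those of LNCaP for 13 of the 40 (25.9% of all genes) and wholly below for 21 (45.5%). Among the 27 matrix genes below the median in all arrays, 17 lay wholly below, as did 61.0% of the named genes that were below it in all arrays. The lower values of COL1A2, COL3A1, COL5A1, COL11A1 and SPARC in DU145 belong to these. How far they share the general downward shift of dim probe sets was not tested.

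The miR-29b contrast asked whether these targets were lower with the microRNA than with nc. For each contrast, a gene counted as above the floor if the higher of its 2 arrays reached that array's median. No matrix gene above the floor differed by 1.5-fold in either line. Among all genes above the floor, 0.0532% were at least 1.5-fold lower and 0.0638% at least 1.5-fold higher in DU145, and 0.244% and 0.604% in LNCaP. In bulk RNA, less transcript in each cell and fewer cells with the transcript cannot be told apart.

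In DU145, 6 of 10 matrix genes above the floor were lower with miR-29b than with nc, where 65.1% of all genes above the floor were. The median of the 10 was -0.12, against -0.04 for all genes. NID1 was at -0.41, HSPG2 at -0.27, SERPINH1 at -0.26, LOXL2 at -0.26, HAS3 at -0.17 and LAMC1 at -0.08. COL6A2 was at 0.00 and ADAM19 at 0.09. COL1A1 (0.34) and ELN (0.37) reached the floor only with miR-29b, so their higher value is part of how they were selected. With the floor reached in both arrays, a choice made after seeing the data, 6 of 8 were lower (65.7% of all such genes) with a median of -0.21. Against siControl, the 6 genes lower than nc lay closer to 0 or above it, with NID1 at -0.15, LOXL2 at -0.14, HAS3 at -0.01, HSPG2 at 0.06 and SERPINH1 at 0.15. SERPINH1 and HSPG2 had their lowest DU145 level with siControl, not with miR-29b. LAMC1, NID1, LOXL2 and HAS3, 4 of the 10, were lower with miR-29b than in both control arrays, beside 37.2% of all genes. LOX, below the floor in this contrast, was at -0.30 from nc and -0.44 from siControl.

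In LNCaP, the 5 genes above the floor were all lower with miR-29b than with nc, where 44.9% of all genes were, with a median of -0.16 against 0.02. LAMC1 was at -0.35, PXDN at -0.34, COL1A1 at -0.16, COL6A2 at -0.14 and ELN at -0.11. Against siControl, LAMC1 was at -0.52 and PXDN at -0.26, while COL1A1 (0.11), ELN (0.14) and COL6A2 (0.27) lay above 0 and the median was 0.11. LAMC1 and PXDN were thus the 2 of 5 lower than both control arrays, beside 23.2% of all genes. The control arrays themselves differed in this line, with a median of -0.26 for the 5 genes (siControl minus nc) and COL6A2 at -0.41.

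Of 4 matrix genes above the floor in both lines, LAMC1 was the only 1 lower with miR-29b than in both control arrays of each line. Of all genes above the floor in both lines, 10.4% were. LAMC1 was singled out after its values were seen. In the limma fit common to both lines, miR-29b minus nc was -0.22 for LAMC1 (SE 0.116, limma adjusted p = 0.995), with an interval from -0.48 to 0.05. HSPG2 and LOXL2 were both at -0.24, with unadjusted limma p-values of 0.0221 and 0.0457 and an adjusted p of 0.995. SERPINH1 was at -0.07, COL6A2 at -0.07, COL1A1 at 0.09 and ELN at 0.13. With limma, 0 of the 8 matrix genes and 0 of 9209 genes passed for this contrast (0% higher and 0% lower). At an unadjusted p below 0.05 there were 2 of the 8, both lower, beside 1.09% of all genes higher and 2.65% lower. Against siControl in the same fit, HSPG2 was at 0.04 and LOXL2 at -0.04, while LAMC1 was at -0.29 (limma adjusted p = 0.696). Such p-values rest on how the arrays scatter about a construct effect common to both lines, with 3 residual degrees of freedom. Nothing in the labels says that the arrays came from separate cultures, so that spread may be technical.

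**Figure D3:**
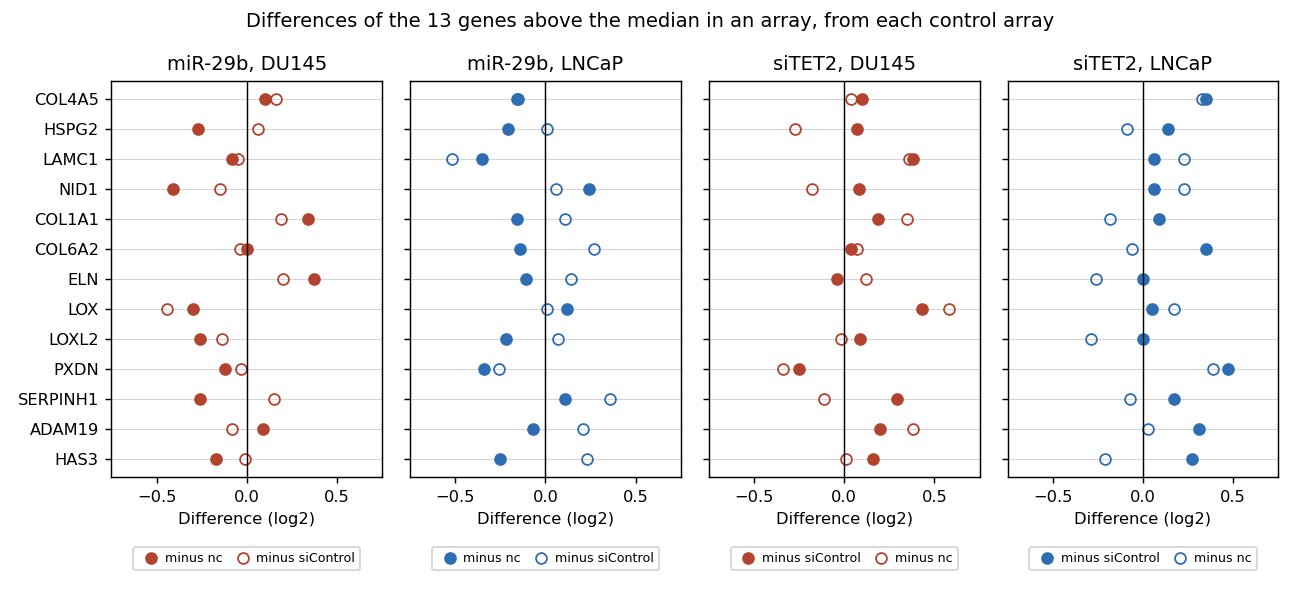
Log2 difference of the miR-29b array (left pair of panels) and the siTET2 array (right pair) from each control array of the line, for the 13 matrix genes above the median in at least 1 array; filled circles use the matched control and open circles the other control. Filled and open circles of a gene often lie on opposite sides of 0, as for COL6A2 in LNCaP and SERPINH1 in DU145. For LAMC1, PXDN, COL4A5 and LOX, both circles lie on the same side of 0 within every panel.

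With siTET2 in DU145, LOX and COL1A1 reached the floor in the siTET2 array only, so they had to be above siControl. The other 8 matrix genes reached it in both arrays and were all above siControl with a median of 0.13, where 47.1% of all such genes were. Counted with LOX and COL1A1, 10 of 10 were above siControl (47.3% of all genes above the floor) and the median was 0.18, against -0.01 for all genes. LOX was at 0.43, LAMC1 at 0.38, SERPINH1 at 0.29, ADAM19 at 0.20, COL1A1 at 0.19 and HAS3 at 0.16. LOXL2, NID1, HSPG2 and COL6A2 lay between 0.04 and 0.09. Set against nc, the median was 0.04 and 4 of the 10 were below 0, with HSPG2 at -0.27, NID1 at -0.18 and SERPINH1 at -0.11. LOX (0.58), ADAM19 (0.38), LAMC1 (0.36) and COL1A1 (0.35) were higher than in both control arrays, and so, by 0.07 or less from nc, were COL6A2 and HAS3. These 6 of the 10 stand beside 33.4% of all genes, and 4 of the 6 remain without LOX and COL1A1. No gene of the 10 reached 1.5-fold from siControl (0.955% of all genes higher, 1.59% lower). COL8A1, a short-chain collagen, was 0.60 higher than with siControl, but at levels of 4.43 with siTET2 and 3.83 with siControl, among the dimmest of the 40. In this range 0.923% of all genes were at least 1.5-fold higher.

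In LNCaP, 5 of the 6 genes above the floor were above siControl (53.1% of all genes above the floor) and the median was 0.22 against 0.01. PXDN was at 0.47, COL4A5 at 0.35, COL6A2 at 0.35, COL1A1 at 0.09 and LAMC1 at 0.06, and ELN had 7.82 in both arrays. COL4A5 reached the floor only with siTET2, so its higher value is part of how it was selected. Of the other 5 genes, 4 were above siControl, with a median of 0.09, where 53.1% of all genes with the floor reached in both arrays were. PXDN (0.39), COL4A5 (0.33) and LAMC1 (0.23) also lay above nc, whereas COL6A2 was at -0.06, COL1A1 at -0.18 and ELN at -0.26. These 3 of 6 genes, or 2 of 5 without COL4A5, were higher than both control arrays, beside 34.4% of all genes, and no gene reached 1.5-fold (0.382% of all genes higher, 2.37% lower). In DU145, PXDN was below the floor and lower with siTET2 than in both control arrays (5.58 against 5.83 with siControl and 5.92 with nc).

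In the fit common to both lines, TET2 fell by 1.18 with siTET2 (SE 0.124, limma adjusted p = 0.0178). Without the siControl array of either line, or without the siTET2 array of DU145, 0 genes were called lower, so the call for TET2 was lost. The difference itself was -1.25 in DU145 and -1.12 in LNCaP, each from 1 pair of arrays. For siTET2 minus siControl, 0 of the 8 matrix genes tested passed, while among all genes 0.0326% were called higher and 0.347% lower with limma. None of the 8 had an unadjusted p below 0.05 (5.47% of all genes higher, 8.27% lower). SERPINH1 was at 0.23 (interval -0.01 to 0.48), LAMC1 at 0.22 (-0.04 to 0.49), HAS3 at 0.21 (-0.02 to 0.45), COL6A2 at 0.19, COL1A1 at 0.14, HSPG2 at 0.10, LOXL2 at 0.04 and ELN at -0.02. The smallest limma adjusted p among the 8 was 0.382. Against nc, LAMC1 was at 0.29 (limma adjusted p = 0.228) and SERPINH1 at -0.09. Of 3 matrix genes above the floor in both lines, LAMC1 was the only 1 above both control arrays in each line, as were 15% of all such genes. Both treatments were set against the same control arrays, so the opposite places of LAMC1 with miR-29b and siTET2 are not independent of each other.

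The 30 to 35 matrix genes below the floor in a contrast mostly lay on the same side of 0 as the other dim probe sets of the array. In DU145, 11 of 30 genes below the floor were lower with miR-29b than with nc, a median of 0.10, where 35.9% of all genes below the floor were lower with a median of 0.07. COL4A6 (0.46), COL6A3 (0.40), COL7A1 (0.38) and COL15A1 (0.37) were highest. In LNCaP, 30 of 35 were lower with miR-29b than with nc, a median of -0.15, where 64.9% of all genes below the floor were with a median of -0.07. SPARC (-0.42), FBN1 (-0.41), COL6A3 (-0.40) and COL15A1 (-0.29) were lowest. The siControl array of LNCaP lay further below nc in these genes, with 32 of 35 lower and a median of -0.27, where 75% of all genes below the floor were lower with a median of -0.18. In DU145, 13 of 32 were lower with siControl than with nc (41.2% of all genes below the floor). Against siControl, the median of the 35 LNCaP genes with miR-29b was 0.11. With siTET2, 7 of 30 were below siControl in DU145 (43.8% of all genes below the floor) and 8 of 34 in LNCaP (35.1%). Of the 8 fibrillar collagen genes, COL1A1 was above the floor in most contrasts and the others were below it. With miR-29b, 0 of 8 were lower than with nc in DU145 and 8 of 8 in LNCaP. With siControl, 8 of 8 were lower than with nc in LNCaP. Beside these counts stand 35.9%, 64.9% and 75% of all genes below the floor, so they are not read as a result about fibrillar collagens.

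**Figure D4:**
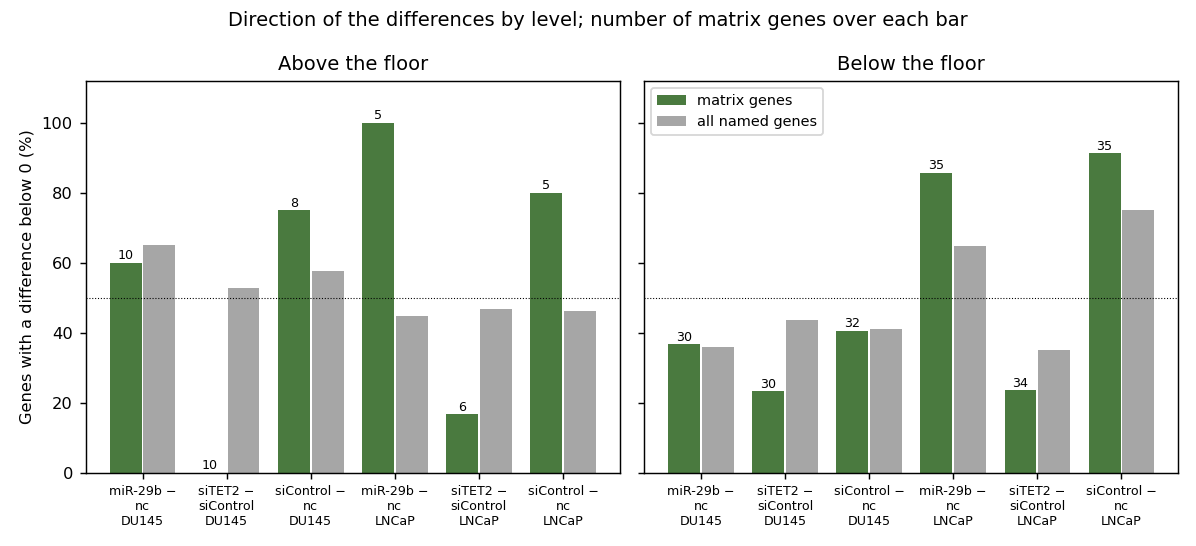
Share of genes with a log2 difference below 0 in each contrast, for matrix genes and for all named genes, above the floor (left) and below it (right); the numbers over the bars count the matrix genes. Below the floor both kinds of gene lie on the same side of 50% in all 6 contrasts; above it, all 5 genes are lower with miR-29b in LNCaP and none of 10 with siTET2 in DU145, of which LOX and COL1A1 reached the floor in the siTET2 array only.

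Genes of the same pathways that are not among the 40 were read from 6 lists. With limma, none of the genes tested passed in the common fit for miR-29b minus nc or for siTET2 minus siControl in any of the 6 (0% and, for siTET2, 0.0326% higher and 0.347% lower among all genes). Of 28 other laminins and matrix glycoproteins measured, 15 were above the floor in DU145 and 14 of these were lower with miR-29b than with nc, with a median of -0.15. Of 18 collagen-processing enzymes above the floor in DU145, 15 were lower, with a median of -0.11, and of 13 genes of the TGF-beta pathway 11 were, with a median of -0.17. These shares stand beside 65.1% of all genes. The siControl array of DU145 lay below nc in the same lists, with 11 of 14 glycoproteins (median -0.14), 13 of 18 processing enzymes (-0.12) and 11 of 13 TGF-beta genes (-0.11). In the common fit, which takes both lines together, 11, 16 and 11 genes of these 3 lists were tested. Their medians of miR-29b minus siControl were 0.04, 0.05 and 0.04. This difference was not taken for DU145 alone in these lists. In the other 3 lists in DU145, 9 of 9 matrix degradation genes were lower with miR-29b than with nc (median -0.17). So were 10 of 12 matrix receptors (-0.08) and 2 of 4 collagens outside the 40 (-0.02), beside the same 65.1%. With siControl, 7 of 9 (-0.15), 6 of 12 (-0.02) and 3 of 4 (-0.09) were lower than with nc. In LNCaP, miR-29b minus nc had a median of 0.07 in the 12 processing enzymes, 4 of them lower. It had a median of -0.13 in the 5 collagens outside the 40, with 5 of 5 lower. Lower too were 3 of 5 glycoproteins, 5 of 8 matrix receptors (-0.07), 4 of 5 matrix degradation genes (-0.17) and 2 of 8 TGF-beta genes (0.12). These shares stand beside 44.9% of all genes. With siControl in LNCaP, 5 of 5 of the collagens were lower than with nc (-0.35), and 5 of 13 processing enzymes and 4 of 8 TGF-beta genes. MMP15, a membrane metalloprotease, had 8.14 with miR-29b against 8.93 with nc in LNCaP (-0.79, and -0.47 from siControl). MMP7, matrilysin, had 9.24 against 8.53 (0.71, and 0.41 from siControl). With siTET2, 0 of 4 collagens outside the 40 were below siControl in DU145 (median 0.15) and 0 of 5 in LNCaP (0.14). In DU145, 8 of 14 glycoproteins (-0.05), 9 of 18 processing enzymes and 9 of 12 matrix receptors (-0.09) were below siControl. So were 4 of 8 matrix degradation genes (0.03) and 6 of 13 TGF-beta genes (0.04), beside 52.7% of all genes above the floor. With siTET2 in DU145, ITGA5, a fibronectin receptor chain, had 10.93 against 10.01 with siControl (0.92) and TGFBR2, the type II TGF-beta receptor, 11.31 against 10.56 (0.75). Between the lines, 9 of 11 other glycoproteins tested were higher in DU145 with limma, among them EFEMP1 (6.44), TNC, tenascin-C (4.44), and LAMB3 (4.26). The 1 lower gene, FN1 for fibronectin, named after its value was seen, was at -4.18. Of 16 processing enzymes 9 were higher, led by PLOD2, a collagen lysyl hydroxylase (7.5), and P3H2, a prolyl hydroxylase (2.63), and 6 lower, led by FKBP10 (-2.07). Of the 11 glycoproteins, 6 reached the level filter through DU145 only and 1 through LNCaP only. For the 16 processing enzymes these were 2 and 1, so the counts of both lists are partly fixed by the filter. These counts stand beside the 41.9% higher and 36.9% lower among all genes.

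Promoter sequences of 3 genes are shown because these genes differed in the line that had them above the median and because TET2 acts on methylated CG dinucleotides. Methylation was not measured here. The 250 bases before the RefSeq gene start are given 5′ to 3′ on the gene's strand (GRCh38.p14), with each CG in capitals. LAMC1 was above the median in both lines (chr1:183023170-183023419, plus strand), NID1 in DU145 only (chr1:236065091-236065340, minus strand) and PXDN in LNCaP only (chr2:1744516-1744765, minus strand).
LAMC1: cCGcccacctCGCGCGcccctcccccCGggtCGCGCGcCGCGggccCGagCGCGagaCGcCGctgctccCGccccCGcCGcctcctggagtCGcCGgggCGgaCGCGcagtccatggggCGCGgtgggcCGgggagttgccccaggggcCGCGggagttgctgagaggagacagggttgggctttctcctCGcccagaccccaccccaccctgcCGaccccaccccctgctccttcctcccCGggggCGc
NID1: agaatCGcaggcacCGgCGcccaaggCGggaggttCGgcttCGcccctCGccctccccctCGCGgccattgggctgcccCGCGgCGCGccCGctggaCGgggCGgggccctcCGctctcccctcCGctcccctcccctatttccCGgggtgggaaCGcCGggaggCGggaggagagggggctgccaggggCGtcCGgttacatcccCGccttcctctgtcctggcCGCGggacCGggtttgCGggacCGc
PXDN: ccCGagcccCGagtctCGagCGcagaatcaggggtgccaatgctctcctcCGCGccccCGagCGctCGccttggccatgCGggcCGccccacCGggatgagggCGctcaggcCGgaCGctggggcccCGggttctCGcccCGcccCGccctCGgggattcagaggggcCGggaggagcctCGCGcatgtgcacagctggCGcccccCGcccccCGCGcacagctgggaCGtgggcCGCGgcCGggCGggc
The 3 windows hold 32, 30 and 32 CG dinucleotides. CG reads the same on both strands and was the only motif searched; 97.1% of the 14239 promoters of named genes hold at least 1 in this window and 45.0% at least 20. The median of all promoters was 18. Of the 40 matrix genes, 30 had a promoter in the table, and 15 of the 30 held at least 20. The 10 of these genes above the array median at least once had a median of 24.5 (8 to 33), and the 20 below it in all arrays a median of 14.5 (3 to 40), so the ranges overlapped. COL4A1 (38) and COL4A2 (40), whose promoters overlap head to head, held more than LAMC1 or PXDN and stayed below the median in every array. COL4A5 (8) and COL4A6 (7) held few, and COL4A5 was near the median in LNCaP.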

How the data were processed

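The deposited values, for 33297 probe sets on 8 arrays, were read as log2 from their range. They were made with RMA in Affymetrix Expression Console, per the submitters' processing notes; versions, the log base and which arrays were normalized together are not given in the sources used here. Probe sets were named through GEO's platform annotation, checked through Entrez identifiers against RefSeq, which changed 0 symbols. The 1754 probe sets with several symbols were not used. Differences within a line are of 2 arrays and have no p-value. Tests used limma 3.58.1 in R 4.3.3 (lmFit, eBayes, Benjamini-Hochberg over all genes tested, threshold 0.05) with line and construct as terms. Only the limma fit was tried on simulated data, which held no difference between the lines. The number of arrays limits the precision. Genes with a level above the median in an array are given for every array, others by range; non-members are named where they passed limma or 1.5-fold. The members and lists were chosen with earlier results of these data known.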

Additional observations from a re-analysis of the deposited data

Results flagged for a closer look

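In 4 of the 13 genes above the median in at least 1 array, a treatment array lay beyond both control arrays of its line in opposite directions in the 2 lines. NID1 with miR-29b minus nc was at -0.41 in DU145 and 0.24 in LNCaP. LOX with miR-29b minus nc was at -0.30 in DU145 and 0.12 in LNCaP, and COL4A5 at 0.10 in DU145 and -0.16 in LNCaP. PXDN with siTET2 minus siControl was at -0.25 in DU145 and 0.47 in LNCaP. With 1 array per line and construct, the difference between the lines was not tested. A further 10 genes that were below the median in all 8 arrays showed the same, among them COL2A1, COL7A1 and COL21A1 with siTET2 and COL9A1 with miR-29b, named after their values were seen. The share of all named genes that did so was not counted, so neither count is a result about the matrix genes. PXDN lay below the array's median in DU145 and NID1 in LNCaP, and LOX and COL4A5 lay below it in the miR-29b and nc arrays of both lines.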

How the results depend on the processing

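With the line's other control array, the median difference of matrix genes above the floor was -0.03 for miR-29b in DU145, 0.11 for miR-29b in LNCaP, 0.04 for siTET2 in DU145 and 0.09 for siTET2 in LNCaP (reported: -0.12, -0.16, 0.18 and 0.22), and with the mean of both controls it was -0.06 for miR-29b and 0.09 for siTET2 in DU145. For miR-29b in DU145 it was 0.07 with no floor and -0.26 with the floor at the 75th percentile, which left 4 genes; for siTET2 in LNCaP these were 0.09 and 0.06. With the floor reached in both arrays, added after seeing the data, it was -0.21 for miR-29b in DU145. With no floor, 1 gene (COL8A1) reached 1.5-fold with siTET2 in DU145. With the 75th percentile in place of the median, 3 genes in DU145 and 1 in LNCaP lay above it in all 4 arrays of the line. Between the lines, limma called 14 of the 40 genes higher and 20 lower in DU145 with no filter, 0 higher and 0 lower with the filter at the 75th percentile (1 gene tested), and 1 lower with quantile normalization. Leaving out 1 array in turn gave 5 higher and 1 to 2 lower. For miR-29b and siTET2 in the common fit, 0 matrix genes passed in any setting, with 1 to 40 of them tested. The count of all genes called lower with siTET2 ranged from 0 to 96 over the settings and that of genes called higher from 0 to 42, against 32 and 3 in the reported fit; without the LNCaP siTET2 array the counts were 94 and 42. Cell line was the block in the reported fit, since the labels number no replicates; without the cell line term 0 genes passed. The cause of these shifts was not tested.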
